A study of Mus musculus with 16 samples.

Results

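The hypothalamus of mice fed 5% of dietary energy as protein was compared with that of mice fed 20%, at both fat levels of the study. The comparison holds 8 of the 16 libraries: 2 on 60% fat with 5% protein, 2 on 60% fat with 20% protein, 2 on 20% fat with 5% protein and 2 on 20% fat with 20% protein. They were chosen by the diet named in their labels and by no measured value, which gave 4 libraries against 4 with the fat level as a covariate. All mice were C57BL/6N, an inbred laboratory strain, and diet is the treatment the labels name. Age, sex and time on the diet are not given in the sources used here. Total RNA came from hypothalamus cut out of the whole brain, so each library pools all cell types of the region. Nothing in the labels ties the 2 libraries of a diet to different animals. The spread behind each p-value is that between these libraries and may be technical. The other 8 libraries, at 1% and 2.5% protein, are used here as context for the levels.

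The series asks how dietary protein alters hypothalamic gene expression at fixed fat levels, with food intake and the mTOR pathway as its theme. The hypothalamus senses nutrients and hormones and sets food intake and energy use, in part through arcuate neurons that make the peptides NPY and AGRP, which stimulate feeding, or POMC, which suppresses it. The kinase mTOR responds to amino acids, and the transcription factor ATF4 to their lack. Metallothioneins are small cysteine-rich proteins that bind zinc and copper. Their genes Mt1 and Mt2 are transcribed in many tissues, in brain mainly in astrocytes, and respond to zinc through the factor MTF1 at metal response elements and to glucocorticoid hormones. Mt3 is a form made mainly in the nervous system.

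Each of the 8 libraries held between 17731242 and 18428442 counts. Of 47069 genes in the table, 16072 passed the filter on low counts. Only 2 genes passed the test (edgeR's quasi-likelihood test, Benjamini-Hochberg adjusted p under 0.05), both higher at 5% protein, which is 0.0124% of the genes tested. They were Mt2 and Mt1, neighbours on chromosome 8. No gene passed in the lower direction, where 344 genes had an unadjusted p under 0.05, and DESeq2 called 2 (Ednrb and Slc7a11) and the likelihood ratio test 6. In all, 666 genes, or 4.14%, had an unadjusted p under 0.05.

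The stretches before the annotated starts of the metallothionein genes are shown because both genes that passed the test are classical targets of the metal response element. Mt3 is set beside them as the family member that did not pass. The sequences are from RefSeq (build GRCm38.p6), on the + strand, 5′ to 3′, and end at the base before the RefSeq start. They are chr8:94178839-94179088 for Mt1, chr8:94172368-94172617 for Mt2 and chr8:94152357-94152606 for Mt3. Capitals mark matches on either strand to the core of the metal response element, TGCACNC or TGCGCNC.
Mt1: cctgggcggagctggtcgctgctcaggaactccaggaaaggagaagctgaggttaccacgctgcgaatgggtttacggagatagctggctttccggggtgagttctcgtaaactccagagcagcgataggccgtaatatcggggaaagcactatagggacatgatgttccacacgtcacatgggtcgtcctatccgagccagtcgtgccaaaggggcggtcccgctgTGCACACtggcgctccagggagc
Mt2: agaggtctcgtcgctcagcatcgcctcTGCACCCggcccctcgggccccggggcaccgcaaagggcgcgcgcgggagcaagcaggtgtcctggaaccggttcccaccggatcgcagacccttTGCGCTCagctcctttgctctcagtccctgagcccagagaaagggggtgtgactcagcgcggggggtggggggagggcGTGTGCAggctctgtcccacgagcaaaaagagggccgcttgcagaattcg
Mt3: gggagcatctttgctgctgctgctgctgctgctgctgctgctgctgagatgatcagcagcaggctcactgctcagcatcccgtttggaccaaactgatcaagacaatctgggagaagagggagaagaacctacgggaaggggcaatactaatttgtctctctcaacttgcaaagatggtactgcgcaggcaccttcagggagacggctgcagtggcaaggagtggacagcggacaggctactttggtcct
Mt2 has 3 matches in the 250 bases shown and 1 in the 50 bases after the RefSeq start. Mt1 has 1 and 2, and Mt3 has 0 and 1. The GENCODE M21 annotation starts Mt2 at 94172664, so its match after the RefSeq start lies before the GENCODE start. It starts Mt1 at 94179082, inside the stretch shown. Whether a match lies before or after a start thus depends on the annotation. In the stretches shown, the match of Mt1 begins 23 bases before the start, and those of Mt2 begin 223, 128 and 50 bases before it. Overlapping matches were each counted. Of 32544 RefSeq windows of the same 300 bases, 25.9% hold at least 1 match, 1.99% at least 3 and 0.522% at least 4. A match describes letters in a window and shows no binding.

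Mt2 (ENSMUSG00000031762, GRCm38 chromosome 8, 94172664 to 94173568) stood at 77.3 and 74.6 CPM (counts scaled to a fixed library size with TMM factors) in the libraries on 60% fat with 20% protein and at 91.9 and 85.9 CPM on 20% fat with 20% protein. With 5% protein it stood at 132.8 and 129.5 CPM on 60% fat and at 118.8 and 121.7 CPM on 20% fat. All 4 libraries at 5% protein lay above all 4 at 20%, a pattern shown by 1.62% of all genes tested. Mt2 rose 1.53-fold, a log2 difference of 0.61 ± 0.069 (SE), with an adjusted p of 0.0149. A change in the number of cells of a type and a change in RNA per cell cannot be told apart in such bulk samples, for this gene or for any below.

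Mt1 (ENSMUSG00000031765, chromosome 8, 94179082 to 94180327) stood at 201, 206, 217 and 194 CPM in the libraries at 20% protein. At 5% protein the values were 292 and 286 CPM on 60% fat and 264.5 and 256 CPM on 20% fat. The groups did not overlap. Mt1 rose 1.34-fold, by 0.42 ± 0.054 (SE) on the log2 scale, with an adjusted p of 0.0278. Mt1 and Mt2 encode similar proteins, and the sources used here do not give how reads matching several genes were counted.

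Mt3 (ENSMUSG00000031760, chromosome 8, 94152607 to 94154146) ran from 318 to 417 CPM at 20% protein and from 370 to 497 CPM at 5%. Its groups overlapped, and its log2 difference of 0.22 ± 0.0998 (SE) did not pass (adjusted p = 0.973). The calls of Mt1 and Mt2 rested on single libraries: each was lost without either library on 60% fat with 5% protein, without either on 60% fat with 20% protein, and without replicate 2 on 20% fat with 20% protein. The adjusted p then lay between 0.0591 and 0.0747 for Mt2 and between 0.104 and 0.204 for Mt1, with log2 differences of 0.56 to 0.62 and 0.40 to 0.41.

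**Figure D1:**
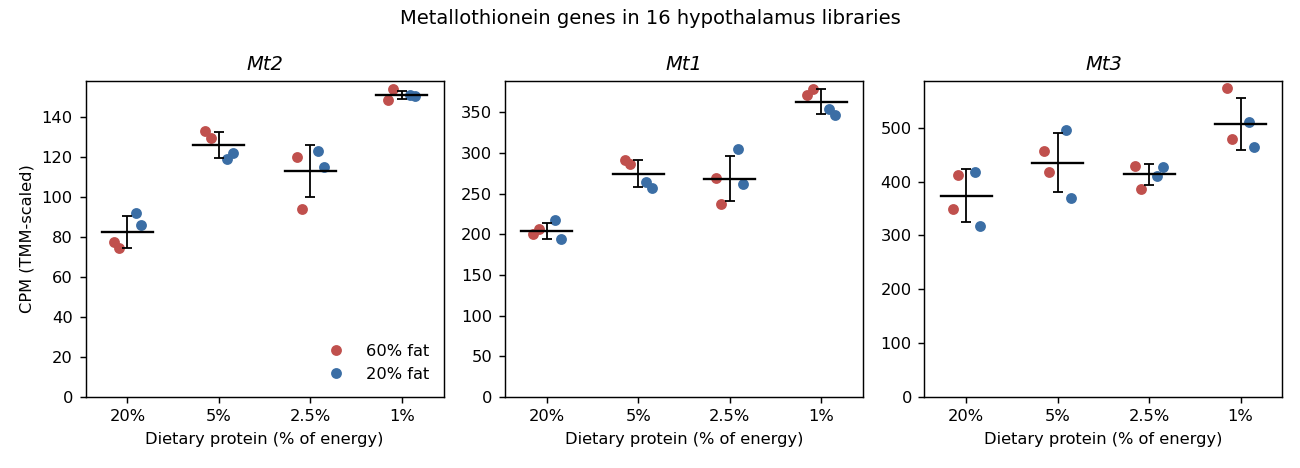
Level of Mt2, Mt1 and Mt3 in CPM (vertical axis, TMM-scaled) in each of the 16 libraries (points), by dietary protein as a percent of energy (horizontal axis); bars are the mean and SD of 4 libraries. The 4 libraries at 5% protein lie between 119 and 133 CPM for Mt2, all above the highest library at 20% protein, 91.9 CPM, while those of Mt3 overlap.

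The libraries at the 2 lower protein levels place these values. The mean of Mt2 was 82.4 ± 7.95 CPM with 20% protein, 126 ± 6.55 CPM with 5%, 113 ± 13.1 CPM with 2.5% and 151 ± 2.20 CPM with 1% (SD, n = 4 each). The ranges at 5% and 2.5% protein overlapped, at 119 to 133 and 93.9 to 123 CPM. For Mt1 the means were 205 ± 9.88, 275 ± 16.9, 268 ± 27.8 and 363 ± 15.3 CPM in that order. In a fit of all 16 libraries, Mt2 differed from 20% protein by 0.61 (log2) at 5% (adjusted p = 0.00655), by 0.46 at 2.5% (adjusted p = 0.0913) and by 0.87 at 1% (adjusted p = 5.92e-06). These comparisons share the libraries at 20% protein. Mt1 was also higher at 1% than at 5% protein, by 0.40 ± 0.068 (SE; adjusted p = 0.00386), and Mt2 by 0.26 ± 0.075 (SE; adjusted p = 0.0543).

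In that fit, 3 genes passed higher and 1 lower at 5% protein, with Angptl4 and Ednrb joining Mt2 and Mt1. At 2.5% protein none passed (785 had an unadjusted p under 0.05), and at 1% protein 1238 passed higher and 1064 lower, all against the same libraries at 20%. Between 1% and 5% protein, 375 genes were higher and 445 lower at 1%.

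Of 15 genes of metal handling, 14 were tested and 2 passed, Mt2 and Mt1, beside 0.0124% of all genes. An unadjusted p under 0.05 was found for 4, all in the higher direction (beside 2% of all genes), with Mt3 and Tfrc as the others. Mtf1, the metal-sensing factor, differed by -0.01 (log2, adjusted p = 0.987), and the zinc exporter gene Slc30a1, another target of that factor, by 0.07 (adjusted p = 0.973). Tfrc, the transferrin receptor that takes up iron, differed by 0.14 (adjusted p = 0.973). These 3 genes were named after their values were seen. The median over the list was 0.07, beside 0.00 over all genes.

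Ednrb, the endothelin B receptor carried by astrocytes and endothelium, came closest to passing among genes lower at 5% protein. It stood at 98.0, 93.8, 87.5 and 90.4 CPM in the libraries at 20% protein and at 76.7, 72.0, 69.3 and 73.7 CPM at 5%. The groups did not overlap, as for 1.28% of all genes in this direction, and the log2 difference was -0.34 ± 0.050 (SE, adjusted p = 0.0704). It passed under 6 of 20 alternative settings.

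Angptl4, which encodes a secreted inhibitor of lipoprotein lipase that is induced by fasting, had the next smallest p. Its levels were 6.32, 7.28, 5.90 and 5.93 CPM at 20% protein, and 11.98, 10.7, 12.2 and 8.16 CPM at 5%. All libraries at 5% lay above all at 20%, with a log2 difference of 0.76 ± 0.13 (SE, adjusted p = 0.206), and it passed under 4 of 20 settings. It averaged 7.83 ± 0.570 CPM at 2.5% protein and 15.7 ± 1.09 CPM at 1% (SD, n = 4 each).

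Other genes with small p in the higher direction did not pass edgeR's quasi-likelihood test either, though DESeq2 called Angptl4, Fam107a, Tekt4 and Hr, and the likelihood ratio test these 4 and Plin4 and Gpd1. Fam107a, a stress-responsive actin regulator, averaged 373 ± 21.7 CPM at 5% protein and 297 ± 17.7 CPM at 20% (SD, n = 4 each; log2 0.33, adjusted p = 0.261). Tekt4, a tektin of cilia and flagella, averaged 7.97 ± 0.876 and 4.79 ± 0.673 CPM (log2 0.73, adjusted p = 0.261). Hr, a nuclear receptor corepressor known as a thyroid hormone target in brain, averaged 110.4 ± 15.4 and 77.9 ± 8.71 CPM (log2 0.50, adjusted p = 0.381). For these 3 genes the groups did not overlap. Gpd1, a glycerol phosphate dehydrogenase, had a log2 difference of 0.63 and Plin4, a protein that coats lipid droplets, one of 1.11. For these genes the groups overlapped, with adjusted p of 0.655 and 0.585, and the span of Plin4 overlaps another coding gene. Sulf2, Ighmbp2, Sdc4 and Kcns1 completed the 12 with log2 differences of 0.20 to 0.57.

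In the lower direction, Slc7a11, the cystine and glutamate exchanger that supplies cysteine for glutathione, stood between 41.1 and 45.1 CPM at 20% protein and between 29.9 and 36.8 CPM at 5%. Its groups did not overlap, and its log2 difference was -0.36 ± 0.066 (SE, adjusted p = 0.265). Igsf1, which is linked to central hypothyroidism in people, differed by -0.24 (adjusted p = 0.381), with 97.4 to 105 CPM at 20% protein and 82.6 to 85.9 CPM at 5%. Tm6sf2, Serpina3n, Emp2 and Enpp6 differed by -0.67, -0.30, -0.31 and -0.46, none of them passing. Ugt8a and Aspa, both genes of myelin lipid metabolism, and Scd1, the stearoyl-CoA desaturase, differed by -0.27, -0.27 and -0.23, and Swt1 and Zfp207 by -0.37 and -0.20.

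**Figure D2:**
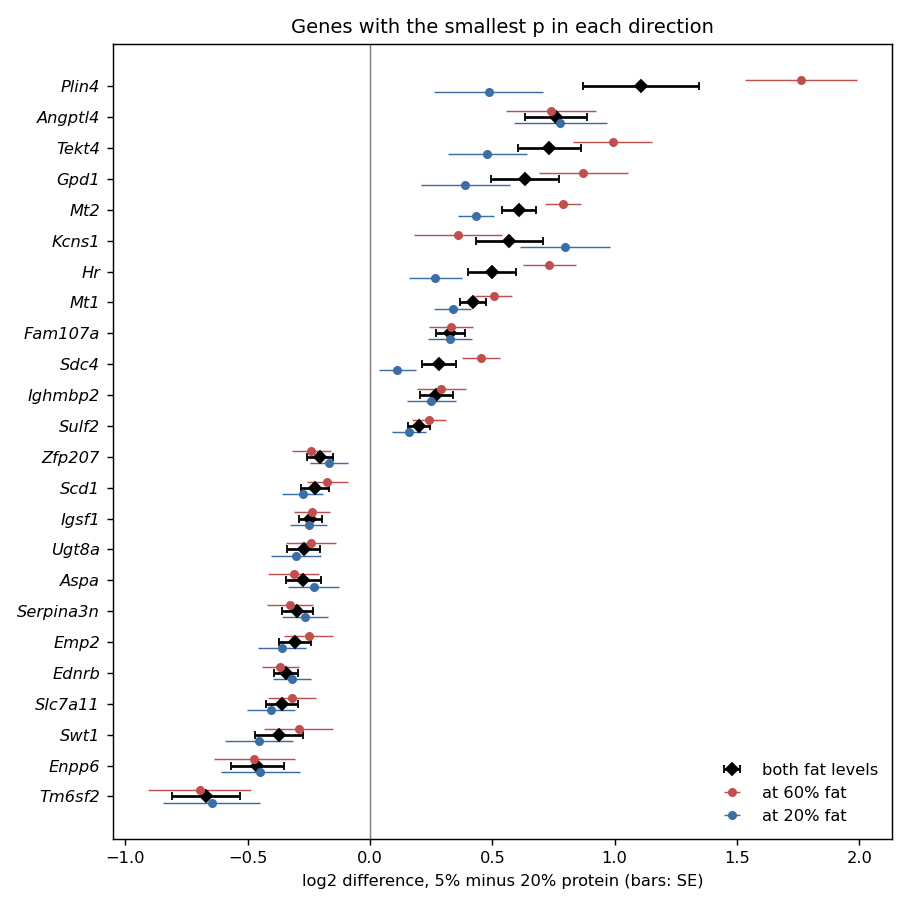
Log2 difference between 5% and 20% protein (horizontal axis) for the 12 genes with the smallest p in each direction, over both fat levels (diamonds) and at 60% fat or 20% fat alone (circles); bars are SE. Only Mt2 and Mt1 passed the test over both fat levels, and for every gene drawn the estimates at the 2 fat levels have the same sign.

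At 60% fat alone, Mt2 rose by 0.79 ± 0.073 (SE) on the log2 scale (adjusted p = 0.00389) and was the only gene of 16325 to pass, 0.00613%. Plin4 followed at 1.76 ± 0.23 (adjusted p = 0.0616), with 13.7 and 13.2 CPM at 20% protein and 35.6 and 55.6 CPM at 5%. Mt1 (0.51), Hr (0.73) and Tekt4 (0.99) had adjusted p between 0.110 and 0.199. The call of Mt2 was lost without any 1 of the 4 libraries on 60% fat. Plin4 passed with no filter beyond 1 count, with DESeq2 and with the replicate block. It did not pass with median-ratio scaling, with all 16 libraries or with the length trend removed.

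At 20% fat alone, 2 genes passed edgeR's quasi-likelihood test, 0.0123%, and neither was a metallothionein, though DESeq2 also called Mt2. Mt2 differed by 0.43 ± 0.073 (SE, adjusted p = 0.443) and Mt1 by 0.34 ± 0.075 (SE, adjusted p = 0.998). Meg3, an imprinted long noncoding RNA, rose, with 275 and 305 counts in the libraries at 5% protein and 70 and 97 at 20% (log2 1.82 ± 0.21 SE, adjusted p = 0.0182). The 2 protein levels did not overlap at this fat level, but 1 library on 20% fat with 2.5% protein also held 274 counts. The other library of that diet held 75, and the span of Meg3 overlaps 5 other genes. Rnf181, a ubiquitin ligase gene chosen after its values were seen, fell from 66 and 62 counts at 20% protein to 0 and 0 at 5% (adjusted p = 0.00711), and held 0 or 1 count in each of the other 12 libraries, including both on 60% fat with 20% protein. For Rnf181 and Meg3, an error in how reads were counted and a difference in RNA cannot be told apart from these files. The calls of Meg3 and of Rnf181 were lost without either library on 20% fat with 20% protein.

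No gene passed for a difference of the protein effect between the fat levels (edgeR's quasi-likelihood test, 16325 genes, 0%; 338 had an unadjusted p under 0.05, and DESeq2 called 1, Meg3). The estimate for Mt2 at 60% fat exceeded that at 20% fat by 0.36 ± 0.10 (SE, unadjusted p = 0.0051, adjusted p = 1.00). Meg3 had a difference of -2.03 and Plin4 one of 1.28, with adjusted p of 0.837 and 1.00. Irx2, a homeobox patterning factor, and Klf2, an endothelial factor that responds to blood flow, differed by 1.25 and 0.79 (adjusted p = 0.926 and 1.00). Irx2 ran at 15.2 and 12.1 CPM on 20% fat with 20% protein and between 6.19 and 8.34 CPM in the other 6 libraries.

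Genes were also read in lists by function. Some genes stand in more than 1 list, as Mt2 and Mt1 do in those of metal handling and of glucocorticoid response. Members of a list other than the one with its smallest p were named after their values were seen. Among these lists, the glucocorticoid response list had the largest share of positive values. It holds genes that corticosteroids are known to induce, such as Fkbp5, a brake on the glucocorticoid receptor, and Sgk1, a kinase. The gene of the receptor itself, Nr3c1, is also a member. Of its 28 members, all tested, 2 passed (Mt2 and Mt1), and 25, or 89.3%, had a positive log2 difference, beside 49.8% of all genes. An unadjusted p under 0.05 in the higher direction was found for 14 members, beside 2% of all genes, and for 0 in the lower direction, beside 2.14%. The list median was 0.27, beside 0.00 over all genes. The list was written with earlier results of these data known, so these counts are not independent evidence of a direction.

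The list was also read at each fat level, with no test of the difference. The median was 0.45 at 60% fat and 0.04 at 20% fat, and 15 members were positive at both. Ddit4, an inhibitor of mTOR that stress hormones induce, averaged 60.0 ± 6.79 CPM at 5% protein and 49.2 ± 2.50 CPM at 20% (SD, n = 4 each; log2 0.29, adjusted p = 0.973). Fkbp5 averaged 55.8 ± 7.02 and 47.2 ± 2.26 CPM (log2 0.24). It differed by 0.39 at 60% fat and by 0.08 at 20% fat. Sgk1 ranged from 83.9 to 180.3 CPM at 20% protein and from 111 to 229 CPM at 5%, so its groups overlapped widely (log2 0.41, adjusted p = 0.973).

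Hif3a stood at 24.6 and 31.1 CPM on 60% fat with 5% protein against 14.5 and 14.8 CPM with 20% protein, but at 17.7 and 24.3 against 17.2 and 20.9 CPM on 20% fat. Lcn2, a secreted lipocalin, held all its libraries at 5% protein (0.4997 to 0.817 CPM) above those at 20% (0.160 to 0.378 CPM), at a level of few counts. Nr3c1, the receptor itself, differed by -0.09 (adjusted p = 0.973). Under the 20 alternative settings 20 to 27 members were positive, with medians between 0.19 and 0.35, the fewest positive without 60% fat with 5% protein replicate 2.

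**Figure D3:**
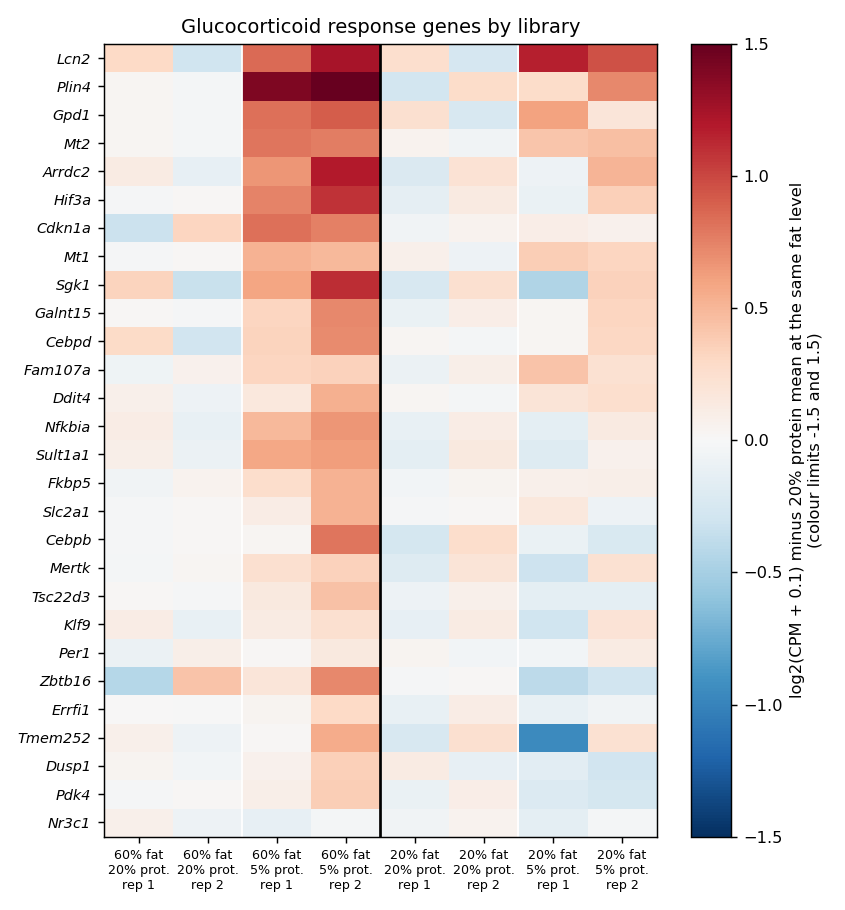
Log2 of CPM + 0.1 minus the mean of the 20% protein libraries at the same fat level (colour, red higher and blue lower) for the 28 genes of the glucocorticoid response list (rows) in the 8 libraries (columns). Red is darkest in the 2 libraries on 60% fat with 5% protein, where the list median was 0.45, and pale on 20% fat with 5% protein, where it was 0.04.

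Genes of fat breakdown, ketone formation and lipid droplets gave mostly positive values, with none of 34 passing edgeR's quasi-likelihood test. DESeq2 called 1, the likelihood ratio test 2 and the fit of 16 libraries with 4 protein levels 1. An unadjusted p under 0.05 was found for 8 in the higher direction and 1 in the lower, beside 2% and 2.14% of all genes, and 25 (73.5%, beside 49.8% of all genes) were positive with a median of 0.05. Besides Angptl4 and Plin4, the 8 included Pnpla2, the lipase that opens fat stores, Cpt1a and Cpt2, which carry fatty acids into mitochondria, Ucp2 and Pdk2. The log2 differences of these 5 were between 0.17 and 0.28. Plin4 is also a member of the glucocorticoid response list, so the counts of these 2 lists are not separate. Cpt1a ran from 36.3 to 40.6 CPM at 20% protein and from 39.9 to 48.2 CPM at 5%, so its groups overlapped. Fabp7, the fatty acid binding protein of astrocytes, was the member in the other direction (-0.39, adjusted p = 0.973).

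Genes that build lipids gave mostly negative values of small size. Of 25 genes of cholesterol synthesis, none passed, 5 were positive (20%, beside 49.8% of all genes) and the median was -0.03. Cyp51, lanosterol demethylase, had the smallest p, with 79.9 to 83.6 CPM at 5% protein and 87.8 to 97.2 CPM at 20% (log2 -0.19, adjusted p = 0.973). Its groups did not overlap, but its span overlaps another coding gene. Without 20% fat with 5% protein replicate 2, 15 of the 25 were negative, and without replicate 1 all 25 were. Among 19 genes of fatty acid synthesis none passed, and Scd1 ran from 307 to 334 CPM at 5% protein and from 348 to 405 CPM at 20%.

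Heat shock genes and chaperones, which guard protein folding, gave 1 positive value of 20 (5%, beside 49.8% of all genes) and a median of -0.07. An unadjusted p under 0.05 in the lower direction was found for 5, beside 2.14% of all genes, and none passed. Chordc1, a partner of HSP90, averaged 59.5 ± 3.11 CPM at 5% protein and 69.3 ± 5.30 CPM at 20% (SD, n = 4 each; log2 -0.22, adjusted p = 0.973). Hspa1b differed by -0.48 (adjusted p = 0.973), but it has a near-identical copy, Hspa1a, and its reads may be split between both. The negative members numbered 14 without 20% fat with 5% protein replicate 2. Genes of endoplasmic reticulum stress had 17 negative values of 21, with Hspa5, the main chaperone of that compartment, at -0.10.

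Amino acid sensing was examined with lists of which no member passed edgeR's quasi-likelihood test, while Slc7a11 passed with DESeq2 and with the likelihood ratio test. Beside each count below stand 2% of all genes with an unadjusted p under 0.05 in the higher direction, 2.14% in the lower and 49.8% positive. Mtor itself ran from 164 to 177 CPM at 20% protein and from 164 to 182 CPM at 5%, a log2 difference of 0.02 ± 0.049 (SE, adjusted p = 0.982). Of 52 genes for mTOR complex subunits and regulators, 4 had an unadjusted p under 0.05 in the higher direction (Ddit4, Prkab1, Castor1 and Akt1s1). That is a larger share than the 2% of all genes. In the lower direction there was 1, near the 2.14% of all genes, and the list median was 0.01. Castor1 is the arginine sensor of the pathway, and Akt1s1 encodes an inhibitor of it. Of 24 effectors, 2 had a small unadjusted p in the lower direction, among them Eif4ebp2, a translation repressor (-0.17).

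Among 49 genes of the response to amino acid deprivation and ATF4, 24 were positive and 25 negative. Asns, asparagine synthetase, the textbook target, ran from 111 to 117 CPM at 20% protein and from 105 to 120 CPM at 5% (log2 -0.02 ± 0.053 SE). The members at a small unadjusted p did not share a direction: Slc7a11 and Atf3 were negative and Ddit4, Gpt2, Psat1 and Slc1a5 positive. Of 32 amino acid transporters, 2 had a small unadjusted p in the higher and 3 in the lower direction. Of 30 genes of amino acid breakdown, 23 were positive, and Glul, glutamine synthetase of astrocytes, averaged 1813 ± 149 CPM at 5% protein and 1545 ± 75.8 CPM at 20% (SD, n = 4 each; log2 0.23, adjusted p = 0.973). Its 2 groups did not overlap. Fgf21, the hormone of protein restriction, held 0 to 3 counts in every library and was not tested.

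**Figure D4:**
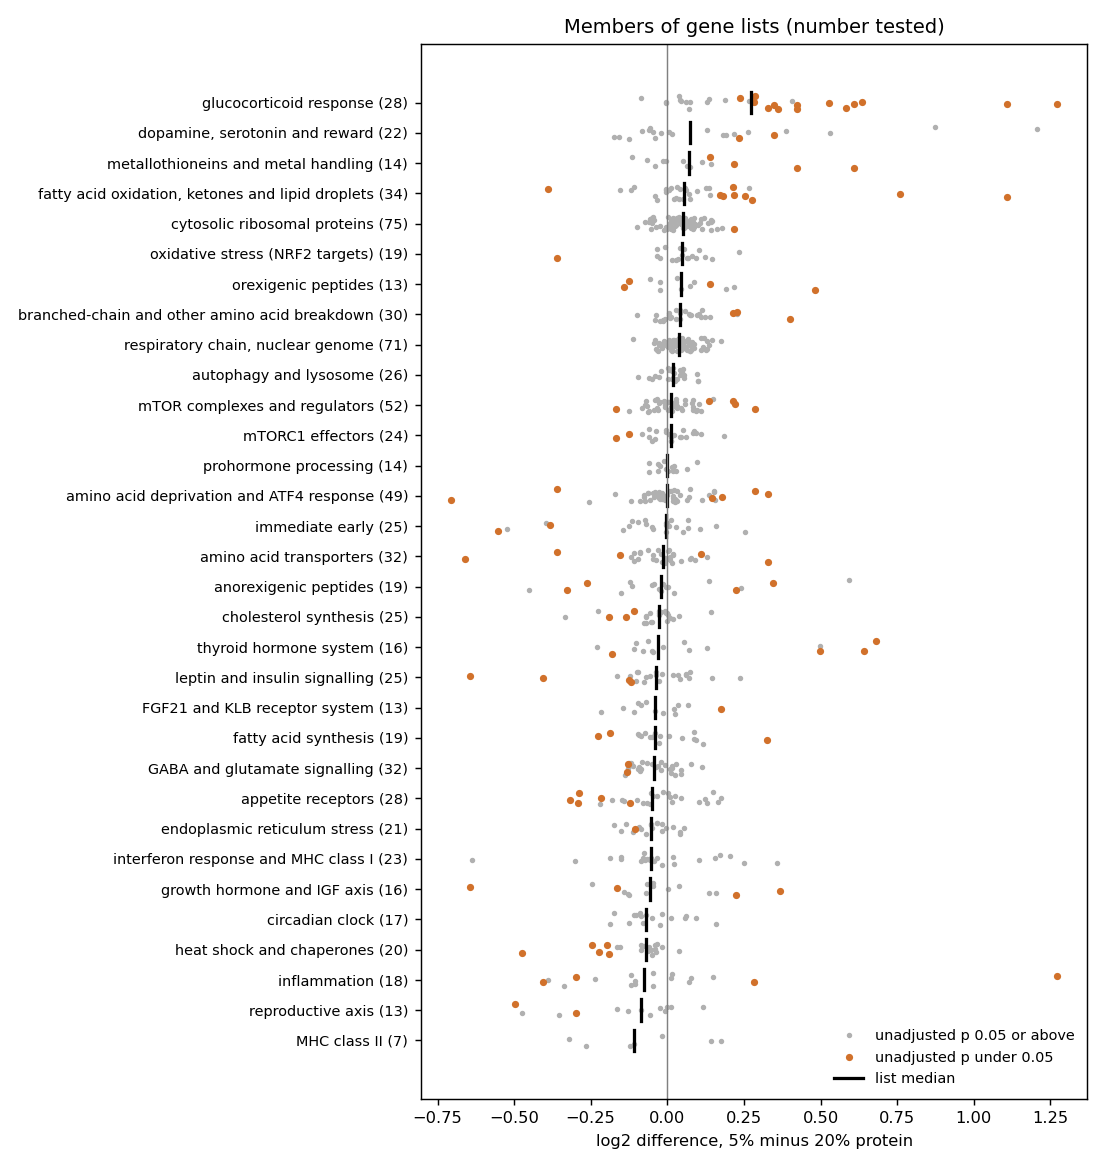
Log2 difference between 5% and 20% protein (horizontal axis) of each tested member of the lists (rows, number tested in brackets); orange points have an unadjusted p under 0.05 and black ticks are list medians. The glucocorticoid response list has the highest median, 0.27, and most other medians lie within 0.1 of 0.

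Appetite peptides did not pass. Npy stood at 15.2, 21.3, 19.0 and 13.6 CPM in the libraries at 20% protein and at 26.5, 20.0, 24.7 and 25.3 CPM at 5%. A single library at 5% protein, replicate 2 on 60% fat, lay within the range at 20%. The log2 difference was 0.48 ± 0.13 (SE, unadjusted p = 0.00325, adjusted p = 0.973). Npy averaged 31.1 ± 8.93 CPM at 2.5% protein and 79.9 ± 29.7 CPM at 1% (SD, n = 4 each), levels given as context. Agrp, made by the same neurons, averaged 5.38 ± 0.567 and 4.63 ± 0.578 CPM at 5% and 20% protein, with overlapping groups (log2 0.22, adjusted p = 0.973). Its span overlaps 2 other coding genes, so its counts are uncertain.

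Pomc stood at 41.9, 46.4, 58.4 and 43.3 CPM at 20% protein and at 34.4, 40.0, 45.2 and 31.5 CPM at 5%. Most of the values at 5% were below those at 20%, but replicate 1 on 20% fat with 5% protein was not (log2 -0.33 ± 0.12 SE, unadjusted p = 0.0146, adjusted p = 0.973). Pomc also stands in the list of pituitary markers, whose mean log2 deviation ran from -0.56 to 0.34 over the 8 libraries. The part of pituitary tissue in the values of Pomc was not tested. Cartpt, Hcrt and Pmch, peptides of arcuate and lateral hypothalamic neurons, differed by -0.12, 0.05 and -0.12. Crh, the releasing hormone of the stress axis, averaged 14.1 ± 1.62 CPM at 5% protein and 11.1 ± 0.743 CPM at 20% (SD, n = 4 each). Its groups did not overlap (log2 0.34, adjusted p = 0.973). Over 13 orexigenic peptides the median was 0.05 and over 19 anorexigenic peptides -0.02.

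Receptors of appetite signals gave 5 members of 28 with an unadjusted p under 0.05, all in the lower direction, beside 2.14% of all genes, with a median of -0.05. They were Htr1b, a serotonin receptor, Npy1r and Ghsr, the receptors of NPY and ghrelin, Mc4r, the melanocortin receptor that restrains feeding, and its partner Mrap2, at -0.12 to -0.32. Leptin and insulin signalling gave 4 of 25 in the same direction, beside the same 2.14%, of which Socs3, a feedback inhibitor induced by leptin, had the smallest p (3.32 ± 0.482 CPM at 5% and 4.41 ± 0.482 CPM at 20%, SD, n = 4 each; log2 -0.41, adjusted p = 0.973). None of these passed. Under the 20 alternative settings, the receptor count ran from 1 to 6 and the leptin and insulin count from 0 to 5.

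Large gene families for protein synthesis and respiration gave small positive medians that moved with single libraries. Of 75 genes of cytosolic ribosomal proteins, 61 were positive with a median of 0.05, and of 71 nuclear genes of the respiratory chain, 58 were positive with a median of 0.04. None passed. Without 20% fat with 20% protein replicate 2, the positive members numbered 23 and 32, and both medians were -0.01. The respiratory list had 39 positive members without 20% fat with 5% protein replicate 1, and 29 with 1 surrogate variable, with which the ribosomal list had 44. Over all genes 49.8% were positive. Ribosomal protein genes have many near-identical copies, so their counts are uncertain. The trend of a library's deviations with gene length ran from -0.230 to 0.327 (Spearman's rho, across genes) over the 8 libraries, the highest in that same replicate 2.

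Markers of cell types and neighbouring tissues were read in each library. Hypothalamic genes were present throughout, with Hcrt at 115 to 143 CPM and Pmch at 89.1 to 109 CPM. Over 17 measures (15 marker lists, the mitochondrial share and the length trend) the smallest exact permutation p was 0.143 (two-sided, 4 against 4; the smallest possible is 0.0286), and every adjusted p was at least 0.941. The mitochondrial genome held 2.19% to 3.10% of the counts, with means of 2.56% at 5% protein and 2.62% at 20%.

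The astrocyte list, which bears on the metallothioneins, had mean deviations of -0.05 to 0.05 at 5% protein and of -0.02 to 0.02 at 20% (log2). Of its 15 tested members, 1 had an unadjusted p under 0.05 in the higher direction and 3 in the lower, beside 2% and 2.14% of all genes. Genes of striatum were positive in all 13 tested members, with a median of 0.23, but their mean deviation was 0.71 in 20% fat with 5% protein replicate 2, and without that library 5 of 13 were positive. Drd2, the dopamine receptor they include, differed by 0.23 (adjusted p = 0.973). Fibroblast and mural markers had a median of -0.08, with 0.04 at 60% fat and -0.20 at 20% fat. Col1a2, a fibrillar collagen, averaged 29.97 ± 2.84 CPM at 5% protein and 36.2 ± 3.01 CPM at 20% (SD, n = 4 each). Pituitary genes varied between libraries, Gh from 0.920 to 10.2 CPM. The part of these differences in the results was not tested.

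**Figure D5:**
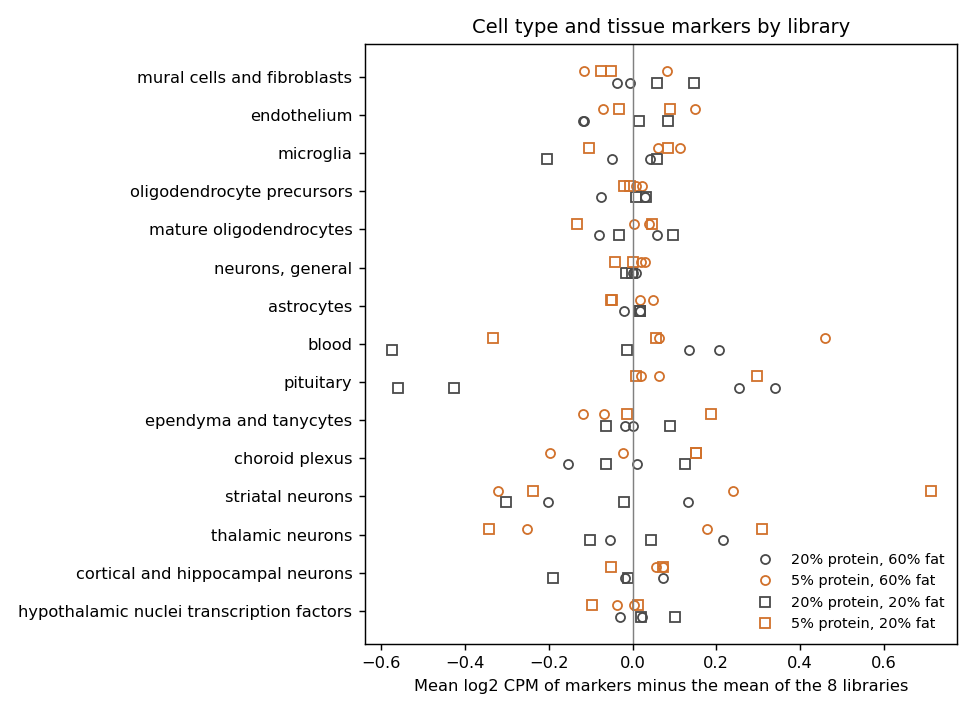
Mean log2 CPM of each marker list minus its mean over the 8 libraries (horizontal axis) for each library (points) and each cell type or tissue (rows). The point farthest from 0 is the striatal list in 20% fat with 5% protein replicate 2, at 0.71, and the lists of astrocytes and general neurons lie between -0.05 and 0.05.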

How the data were processed

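Hypothalamic RNA-seq counts per gene were used as the authors deposited them, with no normalization. Per the submitters' processing notes, reads went through FastQC, HISAT2 2.1.0 on GRCm38, SAMtools 1.2 and featureCounts of Subread 5.0. The deposited count table also gives a gene length, which for 85.5% of matched genes equals the whole genomic span, so reads in introns and in overlapping genes may have been counted. Of 82 named genes, 10 overlap another coding gene: Agrp, Cyp51, Glul, Ighmbp2, Mtor, Plin4, Pmch, Ppp1ca, Prlr and Sulf2. The strand setting is not stated in the sources used. Gene positions are from GENCODE M21 on GRCm38.

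The main test was edgeR 4.0.16 (R 4.3.3): TMM factors (0.990 to 1.01), a minimum count of 10 by filterByExpr, a quasi-likelihood fit of fat and protein on 8 libraries, and Benjamini-Hochberg adjustment over 16072 genes at 0.05. A fit with each diet as a group gave the effect at each fat level and their difference (16325 genes). A 16-library fit gave the other protein levels. DESeq2 1.42.0, other scalings and filters, sva 3.50.0 and libraries left out were alternatives. The fitting code was tested on simulated data.

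Named genes were the 12 with the smallest p in each direction (mean of at least 1 CPM), the smallest-p member of each of 48 lists (up to 4 where members passed), a core set, and the 5 with the smallest p in each direction at each fat level and for their difference. The members and lists were chosen with earlier results of these data known. Same-numbered libraries of different diets did not deviate together (correlations of -0.170 to 0.152 over 6 pairs of diets), so libraries were not paired.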

Additional observations from a re-analysis of the deposited data

Results flagged for a closer look

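In 10 of 164 groups of 4 libraries tested for the named genes (6.1%), 1 library stood apart from the other 3 by Dixon's criterion at the 95% level. Chance gives about 1 in 20. At 20% protein, Atg12 stood at 55.5 CPM in 60% fat replicate 1, against 57.9 to 58.3 CPM in the others, and Emp2 at 23.1 CPM in that library, against 26.0 to 26.5 CPM. Ugt8a stood at 54.7 CPM in 60% fat replicate 2, against 62.3 to 63.8 CPM. In 20% fat replicate 2, Chordc1 stood at 77.3 CPM against 66.4 to 66.9 CPM and Htr1b at 19.9 CPM against 16.8 to 17.3 CPM. Pmch stood at 108.5 CPM in 20% fat replicate 1, against 99.6 to 101 CPM.

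At 5% protein, Col1a2 stood at 34.2 CPM in 60% fat replicate 2, against 28.2 to 28.9 CPM, and Rbfox3, a marker of neurons, at 238 CPM in 60% fat replicate 1, against 226 to 228 CPM. Irx2 stood at 6.55 CPM in 20% fat replicate 2, against 8.03 to 8.34 CPM. Ppp1ca, a protein phosphatase subunit, stood at 6.41 CPM in 20% fat replicate 1, against 0 to 0.111 CPM.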

How the results depend on the processing

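Of 1616 values of named genes under 20 alternatives, 1578 stayed on the same side of the threshold, and no called value changed sign. Most of these values belong to genes that did not pass in the main fit either. Of the 2 genes that passed, Mt1 lost its call under 6 of the 20 alternatives and Mt2 under 5. Among values that did not pass, 13 in 7 genes had the other sign (Asns, Hcrt, Klf2, Lrg1, Mtor, Ppp1ca and Ttr). Over both fat levels (2 genes higher, 0 lower), DESeq2 called 6 higher and 2 lower, the likelihood ratio test 8 and 6, and the 16 libraries with 8 diets as groups 1 higher. Rnf181 was the single gene lower with no filter beyond 1 count and with the replicate block, alone or with the length trend removed. Ednrb was the single gene lower with 16 libraries and 4 protein levels, and with only the length trend removed. With 1 surrogate variable these 2 were lower. Leaving out 1 library gave 0 to 6 higher and 0 to 3 lower, the most without 20% fat with 5% protein replicate 2, where 1674 genes had an unadjusted p under 0.05 against 666.

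At 60% fat (1 higher, 0 lower), 2 genes were higher with no filter, 7 by DESeq2 and 2 with the replicate block, and leaving out 1 library gave 0 to 5 higher and 0 to 1 lower. At 20% fat (1 higher, 1 lower), DESeq2 gave 2 higher, the 16 libraries with 8 diets gave 0, and leaving out 1 library gave 0 to 3 higher and 0 to 1 lower. For the difference between fat levels (0 and 0), DESeq2 gave 1 lower, and leaving out 1 library gave 0 to 1 higher and 0 to 1 lower. The cause of these changes was not tested. Where a diet kept 1 library, that library is assumed to vary like the others. With 2 libraries a diet, the precision is limited by their number.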

Other observations

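A few genes were counted in a few libraries and nearly absent from the rest. They were chosen after their values were seen. Ppp1ca held 119 and 103 counts on 60% fat with 20% protein, 118 in replicate 1 on 20% fat with 5% protein, 104 in replicate 1 on 20% fat with 2.5% protein, and 0 to 2 in the other libraries. Uqcrc1, a subunit of respiratory complex III, held 193 counts in replicate 1 on 20% fat with 5% protein and 0 to 5 elsewhere, whereas Uqcrc2 of the same complex held 3392 to 3881 in all 16 libraries. Rnf181 held 66 and 62 counts on 20% fat with 20% protein and 0 or 1 in the other 14 libraries. Whether the reads of these genes were counted alike in every library was not tested.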
